A study of Homo sapiens with 6 samples.

Results

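HOX genes encode the homeodomain transcription factors that give cells their position along the body axis. They were taken as every gene of the count table whose symbol is HOX, a cluster letter from A to D and a number, which gave 39 of 60662 genes: 11 in HOXA, 10 in HOXB, 9 in HOXC and 9 in HOXD. The cells were DU-145, a human prostate cancer line, stably carrying a doxycycline-inducible hairpin against MUC1, the gene of a transmembrane mucin. The DOX-positive group was 3 cultures given doxycycline (DOX) for 7 days, and the DOX-negative group was 3 cultures given vehicle for the same time. Both groups carried the hairpin vector and received interferon-gamma at 10 ng/ml for 24 hours. Neither cells left without interferon-gamma nor a control hairpin given DOX was analysed here, so DOX and the hairpin cannot be told apart, and the labels do not say whether the line was 1 clone.

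As background, the genes of each cluster lie in a row, and their order along the chromosome follows the order in which they are switched on from head to tail of the embryo. Genes at the same place in different clusters descend from 1 ancestral gene and share a number, the paralog group: low numbers act towards the head and high numbers towards the tail and the urogenital tract. Polycomb complexes keep HOX clusters silent, complexes of the MLL (KMT2) type keep them active, and PBX and MEIS proteins bind DNA together with HOX proteins. In the normal prostate the posterior genes, HOXB13 above all, are part of the epithelial identity of the gland.

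MUC1 had 1.53, 1.31 and 1.32 CPM in DOX-positive libraries, against 20.4, 21.8 and 22.2 CPM in DOX-negative libraries (CPM is the usual count per unit of library size, here with library sizes scaled for composition by TMM, edgeR's trimmed mean method). Every DOX-positive value lay below every DOX-negative value. The log2 fold change was -3.96 (SE 0.08, edgeR quasi-likelihood test, adjusted p = 5.12e-16), which is 15.5-fold lower and goes with the labels. Libraries held 105358357 to 150921436 reads in DOX-positive and 87739734 to 138844816 reads in DOX-negative cells. The 6 epithelial markers (among them KRT8, KRT18 and EPCAM) summed to 2885 to 3036 CPM in DOX-positive and 1288 to 1352 CPM in DOX-negative libraries, and all 6 were higher. Of the 7 luminal prostate markers, KLK3 and FOLH1 had no read in any library. The 14 markers of blood, endothelial, fibroblast and erythroid cells summed to 5.41 to 5.72 CPM in DOX-positive and 7.76 to 8.66 CPM in DOX-negative libraries; CD3E and HBB had no read, and 3 of the 5 that could be tested were lower. The part of these shifts in the HOX values was not tested.

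Of the 39 HOX genes, 29 had 10 or more reads in at least 3 of the 6 libraries: 10 of 11 HOXA, 8 of 10 HOXB, 8 of 9 HOXC and 3 of 9 HOXD genes. The same 29 had 10 or more reads in each of the 6 libraries and passed the expression filter, so none entered through 1 group only. The other 10 were HOXA4, HOXB1, HOXB13, HOXC12, HOXD3, HOXD4, HOXD10, HOXD11, HOXD12 and HOXD13. None of these 10 exceeded 18 reads in any library, and their reads over all 6 libraries summed to between 2 and 55 a gene. HOXB13, the prostate lineage factor, had 0 reads in all 3 DOX-positive libraries and 0, 2 and 0 reads in DOX-negative libraries. At this depth a count of 0 allows up to 3 reads, which was 0.0208 to 0.0303 CPM in DOX-positive and 0.0204 to 0.0328 CPM in DOX-negative libraries, for counting error only. No change in HOXB13 was detectable at that level.

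The HOXA cluster lies on chromosome 7. The HOXB cluster spans chr17:48528526-48729178 (200.7 kb), HOXC chr12:53938765-54056030 (117.3 kb) and HOXD chr2:176092891-176190907 (98.0 kb), on GRCh38 by GENCODE 29 from the first to the last HOX gene. Exons of 25 of the 39 genes overlap those of another annotated gene: 18 on the same strand and 19 on the opposite strand, some on both. HOXB3 shares exon sequence with HOXB4 and HOXB6, HOXC6 with HOXC4, HOXC5 and HOXC9, and HOXA13 lies across from the noncoding gene HOTTIP. How the counting treated strand and shared reads is not given in the sources used here, so values of these 25 genes are uncertain in how reads were assigned. HOXA2, HOXA5, HOXB7, HOXB8, HOXB9, HOXC8, HOXC11, HOXD8 and HOXD9 are the tested genes with no such overlap.

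The clusters also carry microRNA genes whose known targets include HOX mRNAs. The mature sequences from RefSeq (GRCh38.p14) are shown because 2 families, miR-10 and miR-196, have copies inside annotated HOX genes, and because HOXB8, the HOX gene with the largest rise below, holds the textbook miR-196 target site. Capitals mark the seed, bases 2 to 8 from the 5′ end.
hsa-miR-10a-5p (chr17:48579904-48579926, minus strand, inside HOXB4): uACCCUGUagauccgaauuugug
hsa-miR-196a-5p (chr17:48632532-48632553, minus strand, past HOXB9 within the annotated span of HOXB7, and chr12:53991762-53991783, plus strand, past HOXC10 within the span of HOXC6): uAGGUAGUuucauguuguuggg
hsa-miR-196b-5p (chr7:27169528-27169549, minus strand, within the span of HOXA9): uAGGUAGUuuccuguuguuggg
HOXB8 site of miR-196a (chr17:48612770-48612791, minus strand, GRCh38, transcript ENST00000239144.4; capitals mark the bases across from the seed): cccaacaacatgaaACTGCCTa
The miR-196a and miR-196b sequences share 1 seed, and miR-10a has another. The HOXB8 site matched the complement of miR-196a at 21 of 22 bases, with the difference A18G (the complement's base, the position from the 5′ end of the site, the base of the site), which lies across from the seed. The next closest HOX gene had 7 differences. An exact match to the miR-196 seed (ACTACCT) lay in the longest annotated 3′ UTR of 9 of 39 HOX genes (23.1%) and 1358 of 19101 genes (7.11%). For the miR-10 seed (ACAGGGT) the counts were 3 of 39 HOX genes (7.69%) and 2401 of 19101 genes (12.6%). Mature microRNAs were not measured in these poly(A) libraries, and a match describes letters only.

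Across the family, 8 of the 29 tested HOX genes were higher in DOX-positive cells, 13 were lower and 8 did not pass the test (edgeR quasi-likelihood test, Benjamini-Hochberg adjusted over 24695 genes, threshold 0.05). Over all tested genes, 56.5% were called, 27.6% higher and 28.9% lower. Among the 13812 genes within the expression range of the tested HOX genes (a mean of 0.242 to 33.9 CPM), 57.4% were called, 24.2% higher and 33.2% lower. Thus 72.4% of the tested HOX genes were called, with a higher share of 27.6%, at the background, and a lower share of 44.8%. The median log2 fold change of the 29 was -0.12, against -0.04 for all tested genes. The 3 values of each group did not overlap in 24 of the 29, where 62.4% of all tested genes had no overlap. Only HOXB8 was called at least 2-fold higher and only HOXA13 at least 2-fold lower, where 3.56% and 9.38% of all tested genes were. Both lay near that limit, and neither count held under every alternative. HOXB8 fell short of 2-fold with library size alone (log2 fold change 0.986). HOXA13 fell short with DESeq2 size factors, no filter, DESeq2's Wald test, limma-voom, and without DOX-positive replicate 1 or 3 or DOX-negative replicate 1 or 3 (smallest change -0.895). In bulk RNA, fewer cells that express a gene and less of its RNA per cell cannot be told apart. The triplicate cultures are not said to come from separate days, so p-values reflect only how these cultures varied.

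**Figure D1:**
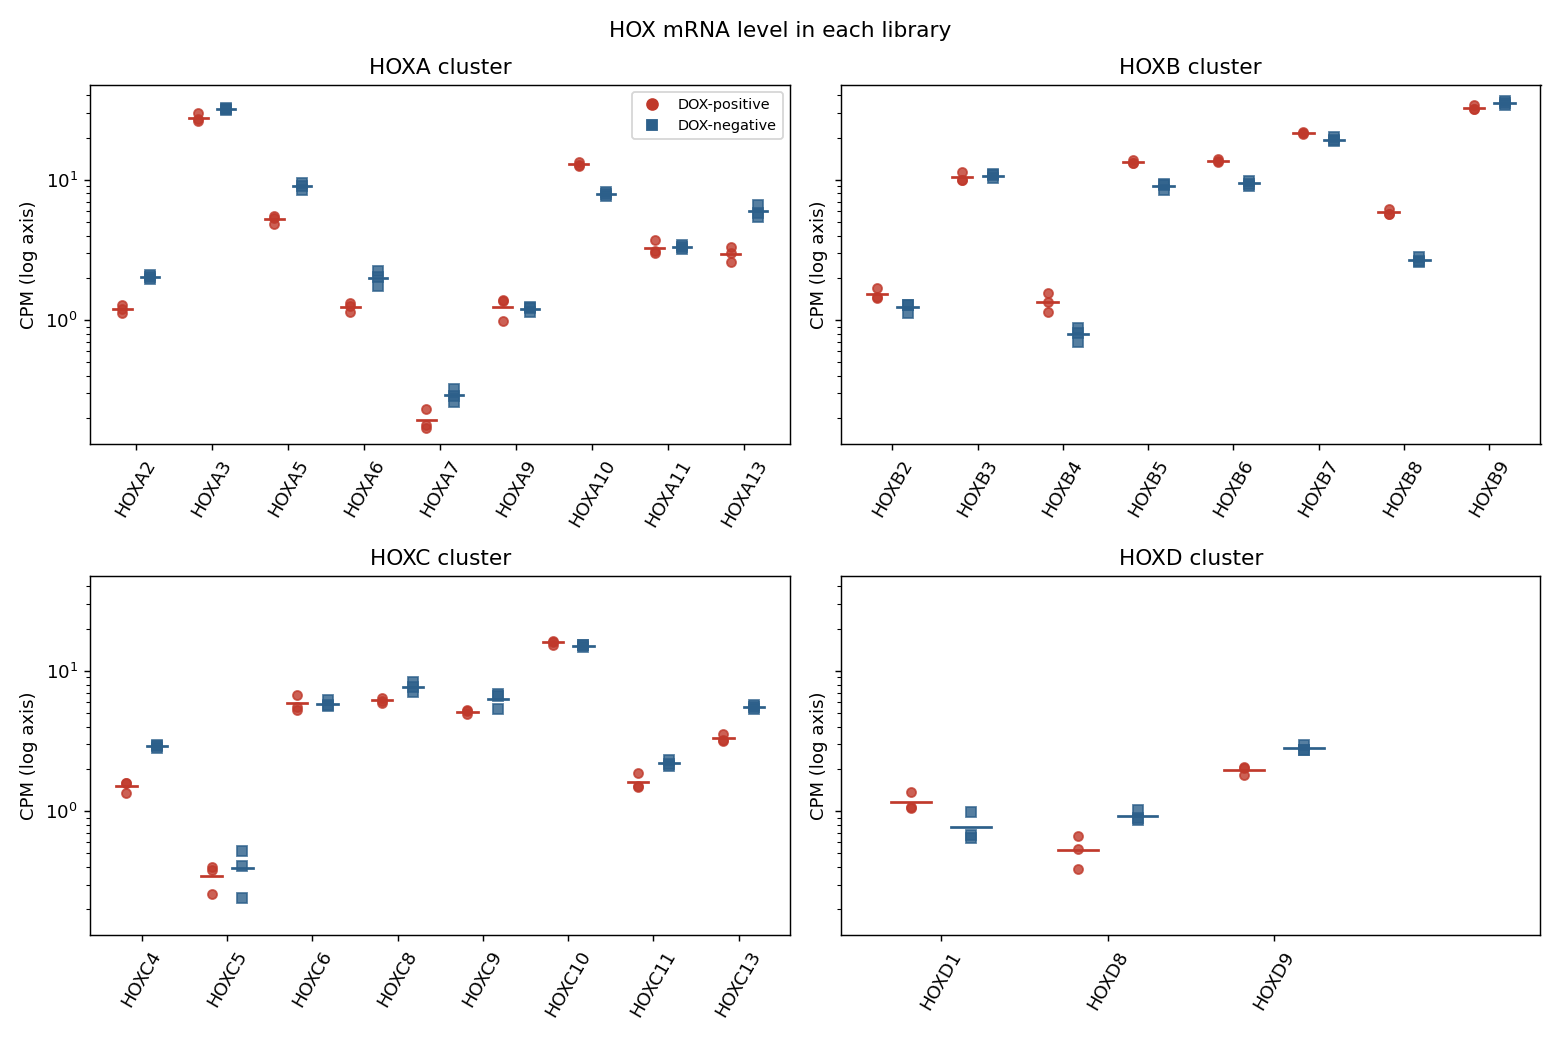
CPM on a log axis for 28 tested HOX genes, by cluster; circles are the 3 DOX-positive and squares the 3 DOX-negative libraries, and short lines are group means. HOXB8 separates upward (means of 5.86 CPM in DOX-positive and 2.68 CPM in DOX-negative libraries), HOXA13 separates downward, and HOXA11 and HOXC6 overlap.

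By cluster, HOXB held 5 of the 8 higher calls, and HOXA and HOXC held 5 each of the 13 lower calls. HOXA had 2 higher, 5 lower and 3 uncalled genes (median log2 fold change -0.40), and HOXB had 5 higher, 1 lower and 2 uncalled genes (median 0.42). HOXC had 0 higher, 5 lower and 3 uncalled genes (median -0.31), and HOXD had 1 higher and 2 lower genes (median -0.51). Of all tested genes, 27.6% were higher and 28.9% lower. The difference between clusters was not tested, since neighbouring genes are not independent replicates. HOXB genes summed to 100.2 ± 1.001 CPM in DOX-positive and 88.4 ± 1.40 CPM in DOX-negative libraries (SD, n = 3 each), a ratio of 1.13. The HOXC sum was 39.98 ± 0.408 CPM in DOX-positive and 46.0 ± 0.976 CPM in DOX-negative libraries, a ratio of 0.870. HOXD summed to 3.84 ± 0.268 CPM in DOX-positive and 4.70 ± 0.447 CPM in DOX-negative libraries, a ratio of 0.816. These 3 sums did not overlap between groups, and their directions held under TMM, DESeq2 size factors, upper-quartile scaling and library size alone. Their size did not: the HOXB ratio ran from 1.03 with library size alone to 1.16 with DESeq2 size factors. Between the same 2 scalings HOXC ran from 0.788 to 0.887 and HOXD from 0.738 to 0.832. HOXA summed to 80.5 ± 1.46 CPM in DOX-positive and 79.7 ± 2.16 CPM in DOX-negative libraries, with overlap, and its ratio ran from 0.914 with library size alone to 1.03 with DESeq2 size factors. The total of all 39 genes was 224.5 ± 1.85 CPM in DOX-positive and 218.8 ± 3.43 CPM in DOX-negative libraries, and its direction likewise flipped, with ratios of 0.929 to 1.05 over those scalings.

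The make-up of the HOX total does not depend on scaling. HOXB took 44.9, 44.4 and 44.6% of the HOX CPM in DOX-positive libraries, against 40.02, 40.9 and 40.3% in DOX-negative libraries. HOXC took 18.1, 17.8 and 17.6% in DOX-positive and 21.0, 21.2 and 20.8% in DOX-negative libraries. The HOXB share was thus above, and the HOXC share below, in every DOX-positive library. HOXA took 35.2, 36.2 and 36.1% in DOX-positive and 36.9, 35.6 and 36.8% in DOX-negative libraries, with overlap. HOXD took 1.77, 1.58 and 1.78% in DOX-positive and 2.01, 2.39 and 2.06% in DOX-negative libraries.

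**Figure D2:**
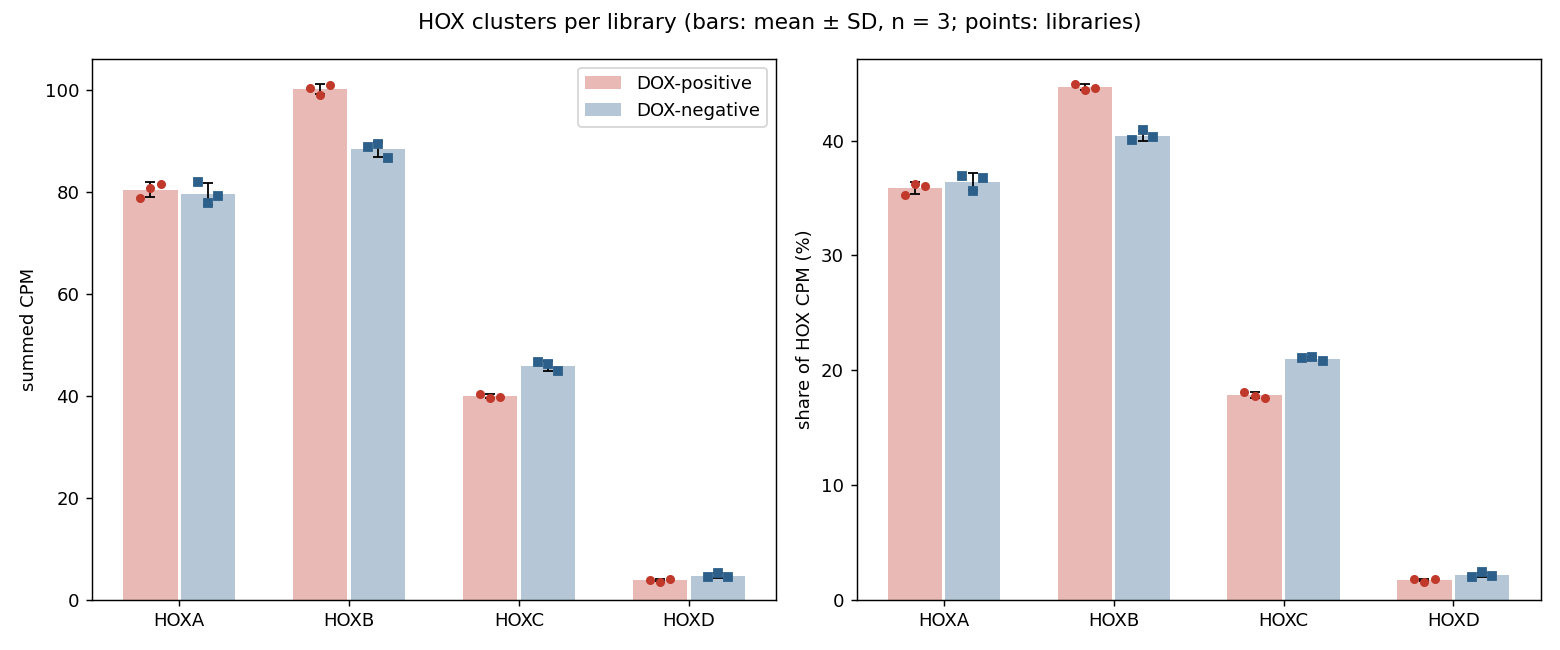
Summed CPM (left) and share of HOX CPM in percent (right) per cluster, DOX-positive left of DOX-negative in each pair; bars are means ± SD of 3 libraries and points are libraries. HOXB stood at 100.2 CPM in DOX-positive and 88.4 CPM in DOX-negative libraries and HOXC at 39.98 CPM in DOX-positive and 46.0 CPM in DOX-negative libraries, while HOXA overlapped.

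Per kilobase of the gene length in the table, the order of levels was led by HOXB7 and HOXB9. In DOX-positive cells HOXB7 (14.1 ± 0.176 CPM per kb) and HOXB9 (12.6 ± 0.478) led, and levels further down included HOXC10 (6.76 ± 0.230), HOXB5 (6.57 ± 0.148) and HOXA3 (6.45 ± 0.431). HOXC10, HOXB5 and HOXA3 differed by less than the spread of HOXA3. In DOX-negative cells HOXB9 (13.6 ± 0.424 CPM per kb) and HOXB7 (12.7 ± 0.451) led, and levels further down included HOXA3 (7.43 ± 0.124) and HOXC10 (6.36 ± 0.0876). By rank among the 39, HOXB8 stood at 12 in DOX-positive and 19 in DOX-negative cells, and HOXB4 at 19 in DOX-positive and 26 in DOX-negative cells.

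In HOXB, a run of neighbouring genes, HOXB4, HOXB5, HOXB6, HOXB7 and HOXB8, was higher in DOX-positive cells. HOXB8 (ENSG00000120068.7, chr17:48611377-48614939), a regulator of thoracic patterning and myeloid differentiation, had 5.74, 5.67 and 6.17 CPM in DOX-positive libraries, against 2.60, 2.64 and 2.80 CPM in DOX-negative libraries. All 3 DOX-positive values were above all 3 DOX-negative values. Its log2 fold change was 1.13 (SE 0.09, edgeR adjusted p = 1.85e-08), or 2.19-fold. HOXB5 (chr17:48591257-48593961), known from the embryonic gut nervous system, had 13.2, 13.7 and 13.2 CPM in DOX-positive libraries, against 9.20, 9.36 and 8.46 CPM in DOX-negative libraries. The groups were clear of each other, and the fitted log2 fold change was 0.57 (SE 0.06, edgeR adjusted p = 3.34e-07), or 1.49-fold. HOXB6 (chr17:48595751-48604992) had 13.5, 13.4 and 14.1 CPM in DOX-positive and 9.86, 9.06 and 9.35 CPM in DOX-negative libraries. Again no value overlapped, and the log2 fold change was 0.54 (SE 0.06, edgeR adjusted p = 5.24e-07). HOXB4 (chr17:48575513-48580111), which expands blood stem cells when overexpressed, had 1.15, 1.56 and 1.34 CPM in DOX-positive and 0.875, 0.804 and 0.699 CPM in DOX-negative libraries. It was 1.70-fold higher without overlap (log2 fold change 0.77, SE 0.18, edgeR adjusted p = 0.00138).

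The other tested HOXB genes moved less. HOXB7, often raised in carcinomas, had 21.2, 21.5 and 21.7 CPM in DOX-positive and 20.1, 19.1 and 18.9 CPM in DOX-negative libraries. Its rise of 1.11-fold passed (log2 fold change 0.15, SE 0.04, edgeR adjusted p = 0.00738), without overlap, but not with upper-quartile scaling or with library size alone. HOXB9, a thoracic patterning gene, had 33.9, 31.8 and 31.8 CPM in DOX-positive and 34.1, 36.3 and 35.2 CPM in DOX-negative libraries. The groups were narrowly apart and HOXB9 fell by 0.12 on the log2 scale (SE 0.04, edgeR adjusted p = 0.018). Its adjusted p ran from 4.56e-05 to 0.123 over the alternatives, and the call was lost without DOX-positive replicate 2 or 3 or DOX-negative replicate 2 or 3, and with DESeq2 size factors, no filter or DESeq2's Wald test. HOXB3, a hindbrain patterning gene, had 10.0, 10.0 and 11.3 CPM in DOX-positive and 10.9, 11.0 and 10.3 CPM in DOX-negative libraries, which overlapped. HOXB2, another hindbrain gene, had 1.69, 1.46 and 1.43 CPM in DOX-positive and 1.28, 1.29 and 1.13 CPM in DOX-negative libraries. HOXB2 did not overlap between groups, yet did not pass (log2 fold change 0.31, SE 0.15, edgeR adjusted p = 0.097).

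In HOXA, higher and lower genes were interspersed along the cluster. HOXA10 (ENSG00000253293.5, chr7:27170591-27180261), a regulator of uterine and urogenital development, had 12.5, 13.5 and 12.7 CPM in DOX-positive and 8.23, 7.70 and 7.91 CPM in DOX-negative libraries. The groups did not overlap and HOXA10 was 1.63-fold higher (log2 fold change 0.70, SE 0.06, edgeR adjusted p = 3.41e-08). HOXA13 (ENSG00000106031.9, chr7:27193503-27200106), the most posterior gene and a factor for the distal limb and urogenital tract, had 2.60, 3.32 and 2.99 CPM in DOX-positive and 6.62, 5.44 and 5.85 CPM in DOX-negative libraries. Every DOX-positive value was lower, and HOXA13 was 2.0-fold lower (log2 fold change -1.0, SE 0.11, edgeR adjusted p = 6.16e-07). Over the alternatives its log2 fold change ran from -1.14 to -0.90.

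HOXA5 (chr7:27141052-27143668), a lung and breast epithelial regulator, had 4.84, 5.34 and 5.49 CPM in DOX-positive and 9.06, 8.49 and 9.47 CPM in DOX-negative libraries. It was 1.72-fold lower without overlap (log2 fold change -0.78, SE 0.08, edgeR adjusted p = 1.72e-07). HOXA2 (chr7:27100354-27102811), which patterns the skeleton of the second pharyngeal arch, had 1.20, 1.28 and 1.13 CPM in DOX-positive and 1.97, 2.09 and 2.02 CPM in DOX-negative libraries. It too was lower in every DOX-positive library, by 1.68-fold (log2 fold change -0.75, SE 0.14, edgeR adjusted p = 0.000203). HOXA6 had 1.25, 1.14 and 1.32 CPM in DOX-positive and 2.23, 2.02 and 1.75 CPM in DOX-negative libraries, a 1.62-fold fall without overlap (edgeR adjusted p = 0.000723). HOXA3, needed for the thymus and parathyroid, had 27.1, 26.3 and 29.9 CPM in DOX-positive and 32.6, 31.6 and 31.7 CPM in DOX-negative libraries. Its fall was small, 1.15-fold, and clear of overlap (log2 fold change -0.21, SE 0.04, edgeR adjusted p = 0.000776).

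The 3 uncalled HOXA genes included HOXA9, the leukaemia-associated partner of MEIS1. HOXA9 had 0.986, 1.36 and 1.38 CPM in DOX-positive and 1.15, 1.23 and 1.23 CPM in DOX-negative libraries. Its groups overlapped, with the lowest and the highest value both in DOX-positive cells (log2 fold change 0.05, SE 0.17, edgeR adjusted p = 0.828). HOXA11, a limb and uterine gene, had 3.71, 3.02 and 3.10 CPM in DOX-positive and 3.44, 3.19 and 3.32 CPM in DOX-negative libraries, also with overlap (log2 fold change -0.02, SE 0.11). HOXA7, the least abundant tested HOX gene per kilobase and named after its values were seen, averaged 0.194 CPM in DOX-positive and 0.290 CPM in DOX-negative libraries and did not pass (edgeR adjusted p = 0.134).

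Sequences upstream of a start of HOXA10 and of HOXA13 are shown because these are HOXA genes that went opposite ways, and they lie next to each other but for HOXA11. They come from RefSeq promoter windows (GRCh38.p14), read 5′ to 3′ on the minus strand, cut to stretches free of GENCODE 29 exons, with CG dinucleotides in capitals.
HOXA10 (chr7:27174321-27174570, 250 bases, upstream of a RefSeq start inside the GENCODE gene, 65.2% G+C, 24 CG): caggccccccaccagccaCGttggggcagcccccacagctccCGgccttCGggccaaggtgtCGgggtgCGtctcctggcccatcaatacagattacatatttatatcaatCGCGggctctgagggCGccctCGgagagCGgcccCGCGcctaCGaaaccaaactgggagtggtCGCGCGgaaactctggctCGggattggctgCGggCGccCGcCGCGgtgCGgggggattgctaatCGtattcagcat
HOXA13 (chr7:27200107-27200341, 235 bases, ending 15 bases before the RefSeq start, 79.1% G+C, 40 CG): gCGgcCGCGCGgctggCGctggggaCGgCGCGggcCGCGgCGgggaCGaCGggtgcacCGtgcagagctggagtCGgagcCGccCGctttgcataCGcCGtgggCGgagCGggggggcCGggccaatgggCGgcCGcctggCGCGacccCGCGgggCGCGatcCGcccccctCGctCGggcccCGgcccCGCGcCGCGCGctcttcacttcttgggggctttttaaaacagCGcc
RefSeq windows of 250 upstream bases were matched for 20 of the 39 HOX genes (26 windows), with a median of 19.5 CG against 11.0 over 34943 windows of all genes. Their median G+C content was 58.8%, against 58.0%. Of 4 motifs searched on both strands, none of which contains another, TGATNNAT, read by PBX with HOX proteins, was in 3 of 26 HOX windows (11.5%) and 6.49% of all windows. TATAAA was found in 5 of 26 HOX windows (19.2%) and 10.8% of all. TTCNNNGAA, the letters read by STAT proteins, and AGGTCA, the retinoid half-site, were in 0 of 26 HOX windows, and in 6.56% and 12.1% of all windows.

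All 5 called HOXC genes were lower in DOX-positive cells. HOXC4 (ENSG00000198353.8, chr12:54016931-54056030), active in lymphocytes, had 1.58, 1.34 and 1.59 CPM in DOX-positive libraries, against 2.82, 2.94 and 2.94 CPM in DOX-negative libraries. The groups were far apart, with HOXC4 1.93-fold lower (log2 fold change -0.95, SE 0.13, edgeR adjusted p = 6.62e-06). HOXC13 (ENSG00000123364.5, chr12:53938765-53946544), the regulator of hair and nail keratins, had 3.57, 3.20 and 3.19 CPM in DOX-positive and 5.69, 5.55 and 5.39 CPM in DOX-negative libraries. It was lower in every DOX-positive library, by 1.67-fold (log2 fold change -0.74, SE 0.09, edgeR adjusted p = 2.39e-06). HOXC8, a thoracic patterning gene, had 6.45, 6.12 and 5.95 CPM in DOX-positive and 8.36, 7.65 and 7.11 CPM in DOX-negative libraries, without overlap (log2 fold change -0.32, SE 0.08, edgeR adjusted p = 0.00209). HOXC9 had 5.25, 5.19 and 4.96 CPM in DOX-positive and 6.59, 6.90 and 5.39 CPM in DOX-negative libraries, where DOX-negative replicate 3 lay close to the DOX-positive values. HOXC11 had 1.48, 1.86 and 1.51 CPM in DOX-positive and 2.11, 2.33 and 2.16 CPM in DOX-negative libraries, with no overlap. Both passed (edgeR adjusted p = 0.0122 each), but HOXC9 did not without DOX-positive replicate 3 or DOX-negative replicate 2, nor HOXC11 without DOX-positive replicate 1 or 3. Over all alternatives the adjusted p ran from 0.00116 to 0.0795 for HOXC9 and from 0.00223 to 0.0565 for HOXC11.

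HOXC6, used with another transcript in a urine test for prostate cancer, had 5.27, 5.53 and 6.78 CPM in DOX-positive and 5.73, 5.66 and 6.16 CPM in DOX-negative libraries. The values overlapped with means of 5.86 CPM in DOX-positive and 5.85 CPM in DOX-negative libraries (edgeR adjusted p = 0.993). HOXC10, a lumbar patterning gene and the most abundant HOXC mRNA per kilobase, had 16.5, 16.2 and 15.4 CPM in DOX-positive and 15.2, 14.8 and 15.2 CPM in DOX-negative libraries. The groups were just apart, but HOXC10 did not pass (log2 fold change 0.09, SE 0.05, edgeR adjusted p = 0.134). HOXC5, also named after its values were seen, averaged 0.346 CPM in DOX-positive and 0.392 CPM in DOX-negative libraries, with overlap.

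HOXD was nearly silent, with 3 genes above the read minimum. HOXD9 (ENSG00000128709.13, chr2:176122720-176124937), a limb and lumbar gene, had 2.08, 1.83 and 2.04 CPM in DOX-positive libraries, against 2.72, 2.98 and 2.75 CPM in DOX-negative libraries. It was lower in every DOX-positive library (log2 fold change -0.51, SE 0.12, edgeR adjusted p = 0.00157). HOXD1 and HOXD8 are named after their values were seen. HOXD8 had 0.664, 0.388 and 0.535 CPM in DOX-positive and 0.895, 1.02 and 0.863 CPM in DOX-negative libraries, a 1.78-fold fall without overlap (edgeR adjusted p = 0.00385). HOXD1, at the anterior end, had 1.06, 1.07 and 1.37 CPM in DOX-positive and 0.644, 0.981 and 0.677 CPM in DOX-negative libraries, so DOX-negative replicate 2 came close to the DOX-positive values. HOXD1 was 1.49-fold higher (edgeR adjusted p = 0.0211), a call lost without DOX-positive replicate 3, DOX-negative replicate 1 or DOX-negative replicate 3, and with library size alone. It lies across from the noncoding gene HAGLR, also higher at 17.8 CPM in DOX-positive and 15.3 CPM in DOX-negative libraries. Reads of HOXD1 and HAGLR may have been mixed, which was not tested.

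**Figure D3:**
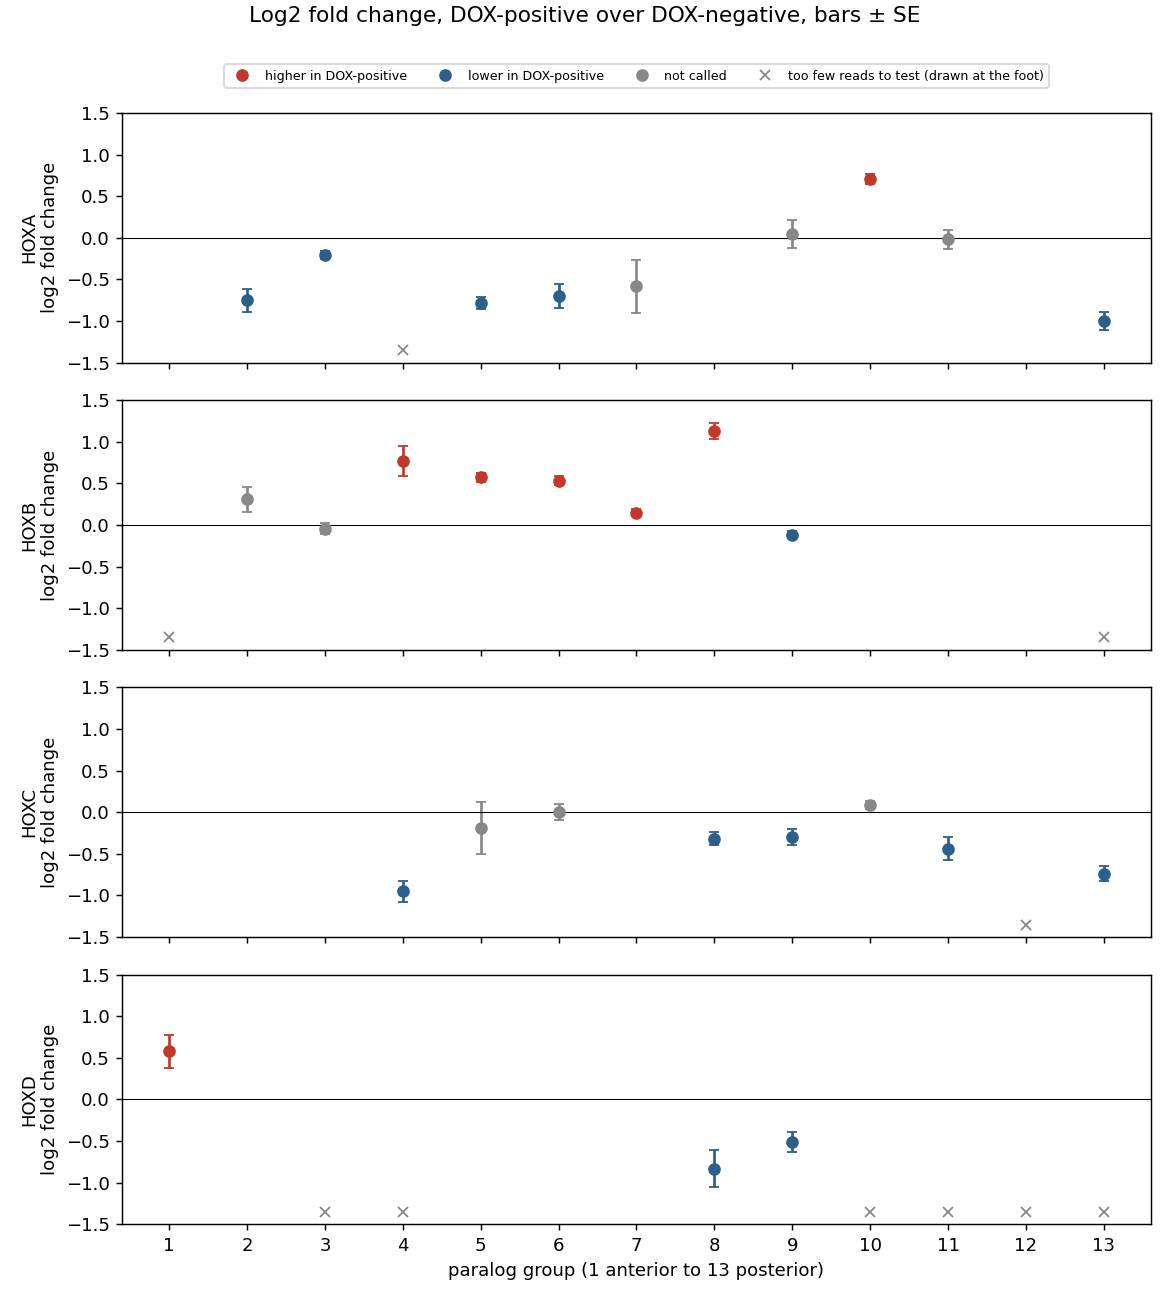
Log2 fold change, DOX-positive over DOX-negative, of the reported HOX genes by paralog group (horizontal axis, anterior to posterior) and cluster (panels), with bars of ± SE; crosses at the foot mark genes with too few reads to test and carry no value. The higher genes HOXB4 to HOXB8 stand together, while both tested genes of paralog group 13, HOXA13 at -1.0 and HOXC13 at -0.74, lie below 0.

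By position along the body axis, groups 1 to 3 had 2 higher and 2 lower of 6 tested genes, groups 4 to 8 had 5 higher and 5 lower of 13, and groups 9 to 13 had 1 higher and 6 lower of 10. Of all tested genes 27.6% were higher and 28.9% lower, and within the HOX expression range 24.2% and 33.2%. In groups 9 to 13, the lower calls of HOXB9, HOXC9 and HOXC11 were lost without DOX-positive replicate 3. The difference between positions was not tested. The 4 genes of group 13, the most posterior, summed to 6.18, 6.53 and 6.18 CPM in DOX-positive and 12.4, 11.0 and 11.3 CPM in DOX-negative libraries. Their summed level was lower in every DOX-positive library, with a ratio of 0.545, and nearly all of it came from HOXA13 and HOXC13. In group 5, HOXA5 was lower and HOXB5 higher, and their sum with HOXC5 overlapped between groups (19.0 ± 0.460 CPM in DOX-positive and 18.4 ± 0.130 CPM in DOX-negative libraries). In group 4, HOXB4 was higher and HOXC4 lower, in group 6, HOXB6 was higher and HOXA6 lower, and in group 8, HOXB8 was higher while HOXC8 and HOXD8 were lower. Paralogs with the same number thus did not share a direction in groups 4, 5, 6 and 8. In group 9 the 3 called genes, HOXB9, HOXC9 and HOXD9, were all lower, as were the 2 of group 13.

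Of 17 noncoding genes tested in or near the clusters, 1 was higher, 7 were lower and 9 were not called (median log2 fold change -0.19). That is 47.1% called, where 56.5% of all tested genes were called, 27.6% higher and 28.9% lower. HOXC-AS2, antisense to HOXC6 and HOXC9, had 3.88, 3.55 and 3.93 CPM in DOX-positive libraries, against 7.85, 7.90 and 7.46 CPM in DOX-negative libraries. It was 2.05-fold lower without overlap (log2 fold change -1.04, SE 0.08, edgeR adjusted p = 9.34e-09), and across from it HOXC9 passed and HOXC6 did not. HOXB-AS2 averaged 0.144 CPM in DOX-positive and 0.298 CPM in DOX-negative libraries (log2 fold change -1.06, edgeR adjusted p = 0.0153). Its call was lost without DOX-positive replicate 2 (adjusted p = 0.0696, and 0.00707 to 0.0696 over all alternatives). The log2 fold change ran from -1.18 to -0.98 for HOXC-AS2 and from -1.25 to -0.88 for HOXB-AS2 over the alternatives. Neither stayed at 2-fold under every one. Named after their values were seen, HOTAIR, a noncoding RNA of HOXC reported in human fibroblasts to act on HOXD through Polycomb, and HOTTIP, which maintains posterior HOXA activity, were also lower. HOTAIR averaged 0.881 ± 0.0497 CPM in DOX-positive and 1.27 ± 0.0928 CPM in DOX-negative libraries (log2 fold change -0.53, edgeR adjusted p = 0.0109). HOTTIP averaged 0.128 ± 0.0476 CPM in DOX-positive and 0.252 ± 0.0168 CPM in DOX-negative libraries (log2 fold change -0.996, edgeR adjusted p = 0.0366), and faces HOXA13, so reads of the 2 genes may have been mixed. The 1 higher gene, also named after its values were seen, was HAGLR, antisense to HOXD1, at 17.8 ± 0.665 CPM in DOX-positive and 15.3 ± 0.751 CPM in DOX-negative libraries. Calls of HOTAIR, HOTTIP and HAGLR were not checked over the alternatives.

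Protein-coding genes flanking the clusters had 9 of 17 tested higher, 3 lower and 5 not called (median log2 fold change 0.16). That is 70.6% called, where 56.5% of all tested genes were called, 27.6% higher and 28.9% lower. TTLL6, a tubulin-modifying enzyme beyond HOXB13, was the 1 neighbour called with at least a 2-fold change, and was 1 of the 3 lower. It had 0.579, 0.485 and 0.454 CPM in DOX-positive and 1.17, 0.838 and 1.08 CPM in DOX-negative libraries, clear of overlap (log2 fold change -1.01, SE 0.20, edgeR adjusted p = 0.000441). Over the alternatives the log2 fold change of TTLL6 ran from -1.16 to -0.89, so 2-fold did not hold under every one. PRAC1, a small prostate-expressed gene next to HOXB13, had no read in any library.

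Among HOX cofactors of the TALE homeodomain class, 2 of 11 tested were higher, 5 lower and 4 not called (median log2 fold change -0.14). Calls made up 63.6% of these, against 56.5% of all tested genes (27.6% higher and 28.9% lower). PBX2, which raises the DNA-binding specificity of HOX proteins, was lower, at 71.7 ± 2.78 CPM in DOX-positive and 90.0 ± 3.22 CPM in DOX-negative libraries (log2 fold change -0.33). PKNOX1 (log2 fold change 0.27) was higher and TGIF2 (-0.27), a repressor, was lower. MEIS1, named after its values were seen, averaged 1.71 CPM in DOX-positive and 2.11 CPM in DOX-negative libraries and did not pass (edgeR adjusted p = 0.0997). Of the ParaHox, caudal and even-skipped genes, 2 could be tested. PDX1 was lower (log2 fold change -0.77). EVX1, beside HOXA13, had a log2 fold change of -0.89 that did not pass (edgeR adjusted p = 0.0673). EVX1 did pass with library size alone (-1.03, edgeR adjusted p = 0.0365) and without DOX-positive replicate 1 (-1.14, edgeR adjusted p = 0.0481). Over the alternatives that tested EVX1, its adjusted p ran from 0.0365 to 0.32.

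The chromatin regulators known to keep HOX clusters on or off held calls in both directions. Calls made up 76.2% of the tested MLL and DOT1L genes, 83.9% of Polycomb genes and 66.7% of insulation genes. Of all tested genes 56.5% were called, 27.6% higher and 28.9% lower. Of 21 genes of MLL and DOT1L complexes, 6 were higher, 10 lower and 5 not called (median log2 fold change -0.07). AFF1, of the elongation complex, was higher (274 ± 2.09 CPM in DOX-positive and 182 ± 4.22 CPM in DOX-negative libraries), as was the H3K79 methyltransferase gene DOT1L (log2 fold change 0.48). PSIP1, which tethers MLL to chromatin, was lower (113 ± 1.54 CPM in DOX-positive and 157 ± 4.37 CPM in DOX-negative libraries), as was the shared subunit WDR5 (log2 fold change -0.34). Of 31 Polycomb genes, 14 were higher, 12 lower and 5 not called (median 0.02). JARID2, a cofactor of PRC2, was higher (87.5 ± 1.62 CPM in DOX-positive and 53.9 ± 0.593 CPM in DOX-negative libraries), while PHC3, a subunit of PRC1, was lower (151 ± 3.64 CPM in DOX-positive and 283 ± 18.1 CPM in DOX-negative libraries). PHC2 (0.48) and the methyltransferase gene EZH1 (0.53) were also higher, both as log2 fold changes. Of 9 insulation genes, 3 were higher, 3 lower and 3 not called; the cohesin release factor WAPL (-0.34) and the cohesin subunits STAG2 (-0.22) and RAD21 (-0.12) were lower, and SMC3 was higher (0.14, but -0.0079 with library size alone). The RAD21 call was lost with DESeq2 size factors (edgeR adjusted p = 0.0905) and without DOX-negative replicate 1 (0.0817) or replicate 3 (0.12); over all alternatives its adjusted p ran from 8.71e-07 to 0.12.

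Retinoid genes, whose signal is a classical inducer of anterior HOX genes, split as 4 higher, 5 lower and 5 not called of 14 tested (median log2 fold change -0.12). The called share was 64.3%, against 56.5% of all tested genes (27.6% higher and 28.9% lower). ALDH1A3, which makes retinoic acid, had 33.8, 32.9 and 32.3 CPM in DOX-positive and 14.2, 14.7 and 13.8 CPM in DOX-negative libraries. It was 2.31-fold higher without overlap (log2 fold change 1.21, SE 0.04, edgeR adjusted p = 4.63e-13). CYP26B1, which degrades retinoic acid, was lower (14.0 ± 0.514 CPM in DOX-positive and 19.8 ± 0.645 CPM in DOX-negative libraries). The next 3 genes are named after their values were seen, and their calls were not checked over the alternatives. CYP26A1, another degrading enzyme, was higher, at 0.364 ± 0.157 CPM in DOX-positive and 0.116 ± 0.0113 CPM in DOX-negative libraries (edgeR adjusted p = 0.00186). ALDH1A2, another synthesising enzyme, was lower, at 0.0761 ± 0.0301 CPM in DOX-positive and 0.190 ± 0.0559 CPM in DOX-negative libraries (edgeR adjusted p = 0.0259). The receptor gene RARB was lower, at 0.230 ± 0.107 CPM in DOX-positive and 0.631 ± 0.0454 CPM in DOX-negative libraries (edgeR adjusted p = 0.000814). The receptors RXRB (log2 fold change 0.34) and RXRA (-0.22) went opposite ways. Of 38 other homeobox genes tested, 8 were higher, 20 lower and 10 not called (median -0.29). Here 73.7% were called, against the same 56.5% of all tested genes. LMX1B was lower, at 1.93 ± 0.207 CPM in DOX-positive and 8.67 ± 0.598 CPM in DOX-negative libraries (log2 fold change -2.17). DLX4 was lower as well, at 6.92 ± 0.388 CPM in DOX-positive and 18.3 ± 0.772 CPM in DOX-negative libraries (log2 fold change -1.40), as were ZHX1 (-0.44) and SIX4 (-0.34).

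**Figure D4:**
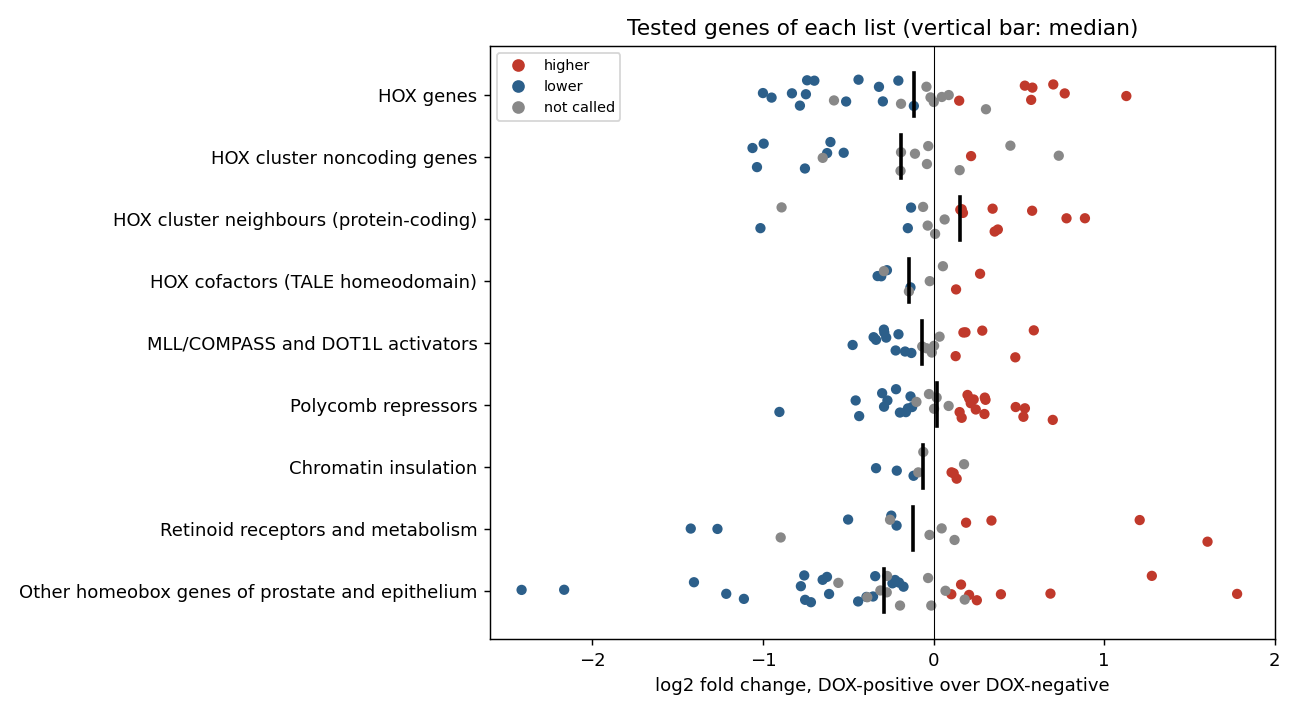
Log2 fold change, DOX-positive over DOX-negative, of the reported genes in the HOX family and 8 related lists; points are genes coloured by call, vertical bars are medians of all tested genes of a list, and the spread of points within a list up and down has no meaning. The HOX genes (median -0.12) spread to both sides, and the other homeobox genes (median -0.29) lie mostly below 0.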

How the data were processed

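Poly(A) RNA of 3 DOX-positive and 3 DOX-negative DU-145 cultures was sequenced from strand-specific libraries (TruSeq Stranded mRNA, per the labels' protocols). The authors deposited raw read counts per gene, whole numbers that are not normalized, with a gene length in bases in another column of the deposited table. Per the submitters' processing notes, CASAVA 1.8.2, STAR 2.7.9a, DESeq2 1.24.0 and GRCh38.p7 were used, with no role given. Neither the counting tool nor its annotation is given in the sources used here. Groups and replicate numbers came from sample titles. In the table, 66 genes had no symbol and 14 symbols had been turned into dates; no HOX gene was among them. Of the gene IDs, 58444 matched GENCODE 29 (GRCh38), which gave positions and exons.

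Counts were tested with edgeR 4.0.16 (R 4.3.3; quasi-likelihood test, TMM scaling, filterByExpr with a minimum count of 10 and total of 15), with group as the only term and Benjamini-Hochberg adjustment over 24695 genes at 0.05. Standard errors were the size of the log2 fold change over the square root of F. Every pair of libraries differed by more than sampling noise (chi-square per degree of freedom 6.40 to 20.8 within groups). Intervals and floors cover counting error only, since reads carry no molecular identifiers. Alternatives used DESeq2 1.42.0, limma 3.58.1 (voom), other scalings and filters, a replicate block and each library left out.

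The members, lists and tests were chosen with earlier results of these data known. By rule, values were given for MUC1, HOX genes with a mean of at least 1 CPM or a called 2-fold change, called 2-fold noncoding genes and neighbours, and up to 4 genes per other list with the smallest p; genes that stand in the counts, sums and medians but are not named with values are not reported here, and further genes are marked as named after their values were seen. Sequences are from RefSeq tables (GRCh38.p14) and GENCODE 29. Figures were drawn with matplotlib 3.10.9.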

Additional observations from a re-analysis of the deposited data

How the results depend on the processing

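Of the 29 tested HOX genes, 17 to 21 were called over the alternatives, 6 to 8 higher and 10 to 14 lower; 17 came without DOX-positive replicate 3, when HOXB9, HOXC9, HOXC11 and HOXD1 were lost. Scaling by library size alone moved the median of all genes by -0.14 on the log2 scale, lost HOXB7 and HOXD1 and added HOXB3. HOXB genes called lower numbered 0 with DESeq2 size factors, with no filter and with DESeq2's Wald test, 2 with library size alone, and 0 to 1 with 1 library left out. HOXD genes called higher numbered 0 with library size alone and 0 to 1 with 1 library left out; HOXD genes called lower numbered 1 under the filter of 1 CPM, which left HOXD8 untested. HOXC genes called lower numbered 3 to 5 with 1 library left out. For the other changes the cause was not tested.

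Direction turned for genes that had not passed, besides SMC3. HOXA11 had a log2 fold change of 0.0099 with DESeq2 size factors, 0.000936 with no filter and 0.00998 with the Wald test, and -0.11 to 0.047 with 1 library left out. HOXA9 was at -0.012 with upper-quartile scaling, -0.10 with library size alone and -0.022 to 0.19 with 1 library left out. HOXC6 was at -0.059 with upper-quartile scaling, -0.14 with library size alone, -0.036 under the 1 CPM filter, -0.0094 with limma-voom, -0.0054 with the replicate block, and -0.11 to 0.077 with 1 library left out. With library size alone HOXC10 was at -0.054 and SMC3 at -0.0079.

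Same-numbered libraries showed no sign of deviating together (correlations -0.16, -0.04 and 0.01, against -0.18 to 0.21 for different numbers). With 3 libraries a group, such a check cannot exclude that the numbers pair the samples. With the replicate block 21 HOX genes were called, the same 21. The 10 untested HOX genes had no more than 18 reads in any library and did not pass the expression filter, so no change was measured for them.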
